A study of Mus musculus with 6 samples.

Results

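Ribosome density on 10 genes that mark epithelium was compared over 6 Ribo-seq libraries of mouse tissue. Ribo-seq sequences the mRNA fragments that translating ribosomes protect from nuclease. The genes are 6 keratins (Krt5, Krt7, Krt8, Krt18, Krt19 and Krt20), the adhesion genes Epcam and Cdh1, the microvillus gene Vil1, and Vim, which serves as the non-epithelial contrast. They were taken by symbol, and all 10 were found among the 18437 mRNAs listed. The mice were wild-type C57BL/6J, 4 weeks old and without treatment, and 1 library each carried the label of lung, heart, kidney, colon, small intestine and brain. Nothing in the labels says how many animals gave a library. With 1 library per label there was no replicate error, so no test was made between libraries and no p-value is given. Levels are in RPKM, reads on the coding sequence (CDS) per kilobase of CDS, scaled to the reads on all CDSs of the library, and intervals are 95% intervals of the counting error only, since the reads carry no molecular identifiers.

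Markers of the tissues went against 4 of the 6 labels, so each library is named below by its label alone, as in "the brain-labelled library". The brain-labelled library carried the small intestine markers Apoa4, Fabp2 and Lct, with a summed density of 27672 RPKM against 343 RPKM in the small intestine-labelled library. The brain markers Snap25, Syt1 and Gfap summed to 3049 RPKM in the small intestine-labelled library and to 11.9 RPKM in the brain-labelled one. The kidney markers Umod, Slc12a1 and Slc34a1 summed to 18523 RPKM in the colon-labelled library and to 15.8 RPKM in the kidney-labelled one. The colon markers Muc2, Car1 and Slc26a3 summed to 3288 RPKM in the kidney-labelled library and to 1.72 RPKM in the colon-labelled one. Markers of heart (Myh6, Tnnt2, Actc1) and of lung (Sftpc, Sftpb, Scgb1a1) were highest under their own labels. The libraries held between 4504853 reads (colon-labelled) and 10635031 reads (brain-labelled) on CDSs. A single mRNA, Kri1, held 22.1% of reads under the kidney label and 14.1% under the small intestine label, which lowers every other RPKM there but leaves ratios within a library as they are.

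Keratins are the intermediate filament proteins of epithelial cells, and a filament forms only when a type I keratin pairs with a type II keratin. Krt8 (type II) with Krt18 (type I) is the pair of simple, single-layered epithelia such as those of gut, kidney tubule and airway, and Krt19, Krt20 (both type I) and Krt7 (type II) join it in some of them. Krt5 (type II) belongs to the basal cells of stratified and airway epithelium. Cdh1 is E-cadherin, which holds epithelial cells together at adherens junctions, Epcam is an epithelial cell surface adhesion protein, and Vil1 is villin, which bundles actin in the microvilli of the intestinal and renal brush border. Vim, vimentin, builds the intermediate filaments of fibroblasts, endothelium, leukocytes and other non-epithelial cells.

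The genes lie on 6 mouse chromosomes of build GRCm39. The type II keratins share chromosome 15, with Krt7 at chr15:101308924-101328194 (plus strand), Krt5 at chr15:101615505-101621346 (minus strand) and Krt8 at chr15:101905133-101912917 (minus strand). Krt18 is the type I keratin that lies beside them, at chr15:101936615-101940462 (plus strand), 23697 bases from Krt8. Krt20, at chr11:99319227-99328985, and Krt19, at chr11:100031636-100039491, lie on the minus strand of chromosome 11. Epcam is at chr17:87943407-87958557, Cdh1 at chr8:107329941-107396880, Vil1 at chr1:74448535-74475933 and Vim at chr2:13578738-13587639, all on the plus strand. The reads counted were those on the annotated CDS, without introns and UTRs.

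Because keratins form a family of similar genes, the CDSs were searched for stretches that another listed mRNA also holds, from which a short read could not be placed. Of all windows of 28 nt, about the length of a ribosome footprint, the share found in another listed mRNA was 6.19% for Krt5, 2.68% for Krt7, 2.63% for Krt8, 2.12% for Krt19, 1.02% for Vim and 0.204% for Vil1. No window of Krt18, Krt20, Epcam or Cdh1 was found elsewhere among the listed mRNAs. The shared windows of Krt7, Krt8 and Krt19 are shown to make clear where reads of these genes were open to loss, as multi-mapped reads were excluded by the authors. Each is the first window of its gene's longest shared stretch, from CDS bases 1135 to 1162 of Krt7 (shared with Krt73), 322 to 349 of Krt8 (with Krt78) and 928 to 955 of Krt19 (with Krt17 and Krt42).
Krt7: ctggacattgagatcgccacctaccgca
Krt8: ttcgcctccttcattgacaaggtgcgct
Krt19: gagattgagctgcagtcccagctcagca
Among all annotated transcripts, 44.7% of the windows of Krt8 also occur in the processed pseudogene Krt8-ps and 13.4% of those of Krt18 in Gm5200, but the methods describe a reference of protein-coding mRNAs only. For Krt5 the share was 18.5% over all annotated transcripts, and 12.7% of its windows occur in Krt6a, a protein-coding gene that no library lists. Whether Krt6a was part of the reference is not given in the sources used here.

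Krt8 and the type I keratins it can pair with, Krt18, Krt19 and Krt20, whose balance is compared below, are also shown at the start of their CDS, with 6 bases before it and the start codon in capitals. These are the points from which the reads were counted.
Krt8: ttcaccATGtccatcagggtgactcagaaa
Krt18: gacaagATGagcttcacaactcgctccacc
Krt19: ctcatcATGacttcctatagctatcgccag
Krt20: tcccagATGgatttcagtcgtcaaagtttt
All sequences are those of GRCm39, at the CDSs that GENCODE M39 annotates.

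The 9 epithelial genes together took 2.63% of all reads in the brain-labelled library and 0.865% in the kidney-labelled one. Their share was 0.119% in the lung-labelled library, 0.0719% in the colon-labelled one, 0.0284% in the small intestine-labelled one and 0.0201% in the heart-labelled one. The density of 5 of the 10 genes was highest in the brain-labelled library, that of 3 in the kidney-labelled library and that of 2, Krt7 and Vim, in the lung-labelled library. No gene was highest in the libraries labelled colon, heart and small intestine. Of all 12976 mRNAs with at least 50 reads in a library, 17.1% were highest under the brain label, 6.98% under the kidney label, 26.8% under the lung label, 21.7% under the small intestine label, 14.7% under the colon label and 12.7% under the heart label. In bulk tissue, fewer epithelial cells and less ribosome-bound mRNA per cell cannot be told apart.

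**Figure D1:**
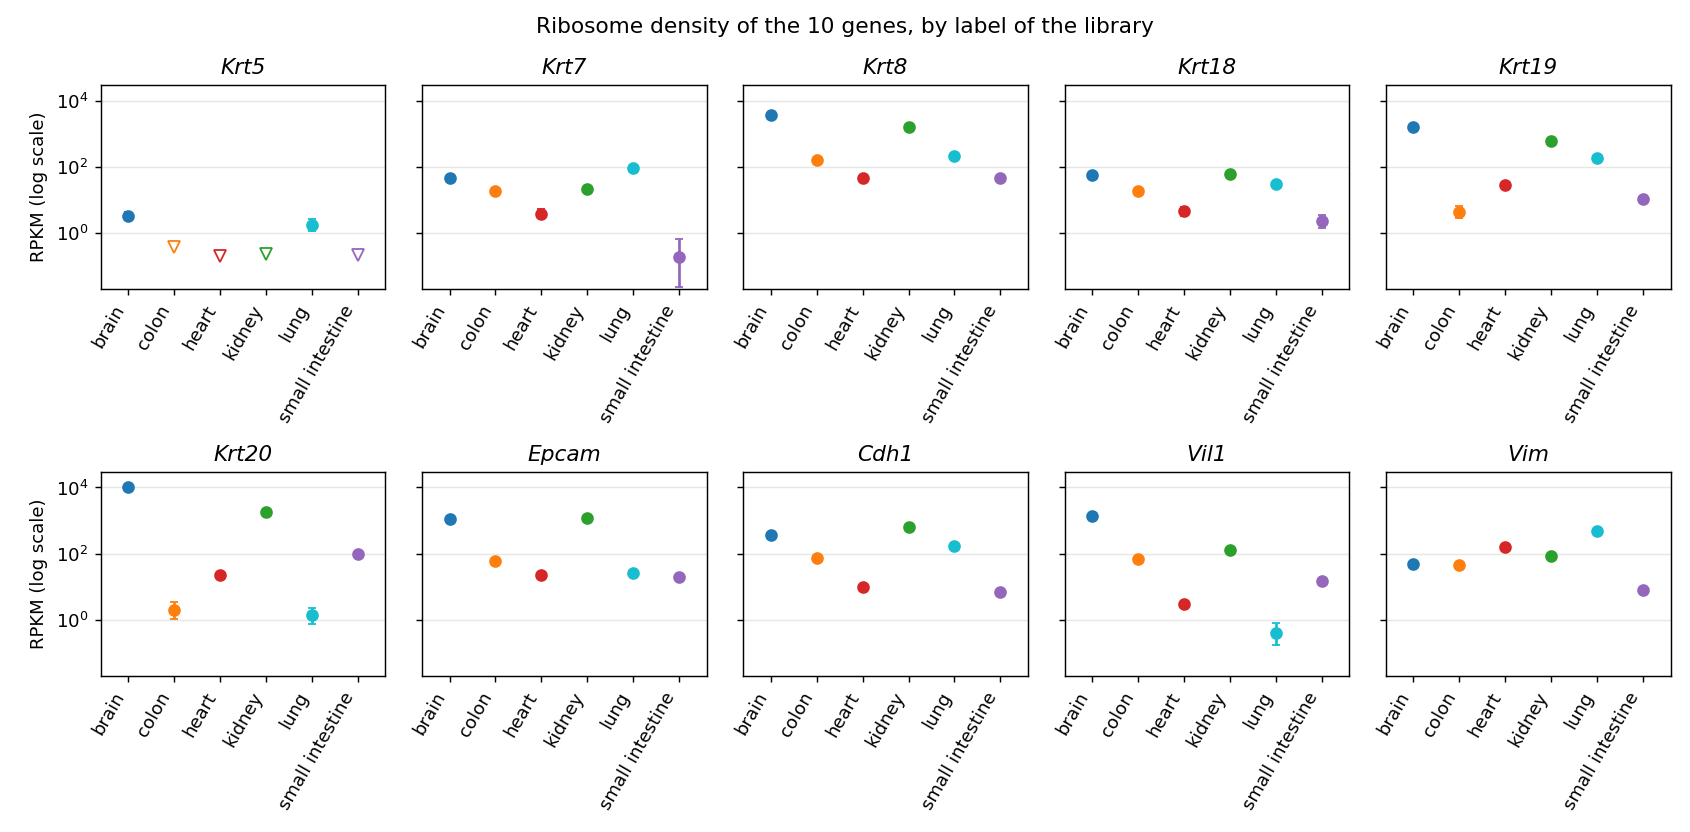
Ribosome density (RPKM, log axis) of each of the 10 genes in the 6 libraries, named by label. Points are single libraries with exact Poisson 95% intervals, and open triangles mark the RPKM that 3 reads would give where a library had none. Krt20 spans from 1.40 RPKM (lung-labelled) to 10346 RPKM (brain-labelled), while Vim is highest in the lung-labelled library at 491 RPKM.

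Among the type II keratins, Krt8 was the most densely translated in all 6 libraries. Its density was 3707 RPKM in the brain-labelled library, 1585 RPKM in the kidney-labelled one, 219 RPKM in the lung-labelled one, 160 RPKM in the colon-labelled one, 46.1 RPKM in the heart-labelled one and 45.4 RPKM in the small intestine-labelled one. Krt8 ranked 20 among the 11520 mRNAs with reads in the brain-labelled library. The libraries labelled heart and small intestine, at the bottom of this order, did not differ beyond counting error.

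Krt7, a keratin of ducts and airways, followed another order. It had 95.0 RPKM in the lung-labelled library, 45.7 RPKM in the brain-labelled one, 21.1 RPKM in the kidney-labelled one, 18.8 RPKM in the colon-labelled one, 3.92 RPKM in the heart-labelled one and 0.191 RPKM, from 2 reads, in the small intestine-labelled one. The lung-labelled library exceeded the next one 2.08-fold (1.88 to 2.30), and the values of the libraries labelled kidney and colon overlapped within counting error. Krt5, the basal cell keratin, had the lowest peak of the 10 genes, with 3.40 RPKM from 63 reads in the brain-labelled library and 1.78 RPKM from 24 reads in the lung-labelled one. It was listed at 0 in the colon-labelled library and not listed in the other 3, and 3 reads in those 4 libraries would give between 0.211 and 0.383 RPKM. The brain-labelled library exceeded the lung-labelled one 1.91-fold for Krt5 (1.18 to 3.19), although the single intervals overlapped.

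Krt20, a type I keratin known from differentiated intestinal epithelium, had the widest range of the 10 genes. It had 10346 RPKM in the brain-labelled library, 1870 RPKM in the kidney-labelled one, 97.1 RPKM in the small intestine-labelled one, 23.5 RPKM in the heart-labelled one, 2.06 RPKM from 12 reads in the colon-labelled one and 1.40 RPKM from 14 reads in the lung-labelled one. In the brain-labelled library it ranked 8 among all mRNAs, and in the kidney-labelled one 37. The highest library was 7387-fold above the lowest, where the median of this range over 12976 mRNAs with at least 50 reads in a library was 23.4-fold and the 90th percentile 207-fold. The libraries labelled colon and lung overlapped within counting error.

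Krt19, which lacks the tail domain of other keratins, had 1607 RPKM in the brain-labelled library, 593 RPKM in the kidney-labelled one, 182 RPKM in the lung-labelled one, 28.7 RPKM in the heart-labelled one, 11.0 RPKM in the small intestine-labelled one and 4.41 RPKM, from 24 reads, in the colon-labelled one. It was the only one of the 10 genes with its lowest value above 0 in the colon-labelled library, and its 6 values did not overlap within counting error. Krt18, the type I partner of Krt8, did not exceed 61.6 RPKM in any library. It had 61.6 RPKM in the kidney-labelled library, 57.7 RPKM in the brain-labelled one, 29.8 RPKM in the lung-labelled one, 19.2 RPKM in the colon-labelled one, 4.62 RPKM in the heart-labelled one and 2.27 RPKM in the small intestine-labelled one. The 2 highest libraries differed by 1.07-fold (0.958 to 1.19), which is within counting error, but by 1.34-fold with Kri1 left out of the totals. For the 2 lowest the single intervals overlapped, but the small intestine-labelled library stood at 0.491 (0.282 to 0.829) of the heart-labelled one, apart beyond counting error.

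The balance of the keratin types was therefore compared within each library, where the scaling between libraries plays no part. The summed density of Krt5, Krt7 and Krt8 over that of Krt18, Krt19 and Krt20 was 6.96 (5.85 to 8.32) in the colon-labelled library and 1.48 (1.40 to 1.57) in the lung-labelled one. It was 0.879 (0.783 to 0.987) in the heart-labelled library, 0.636 (0.624 to 0.649) in the kidney-labelled one, 0.413 (0.371 to 0.459) in the small intestine-labelled one and 0.313 (0.310 to 0.316) in the brain-labelled one. Type II keratins thus exceeded type I in the libraries labelled colon and lung only among the 6. In the heart-labelled library the sums of reads, not divided by CDS length, turned the direction to 1.03. The ratio of Krt8 to Krt18 alone was above 1 in every library, from 7.37 (6.52 to 8.35) in the lung-labelled one to 64.2 (59.8 to 69.0) in the brain-labelled one. It was 25.7 in the kidney-labelled library, 20.0 in the small intestine-labelled one, 9.96 in the heart-labelled one and 8.32 in the colon-labelled one, and the last 2 overlapped with the lung-labelled one.

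**Figure D2:**
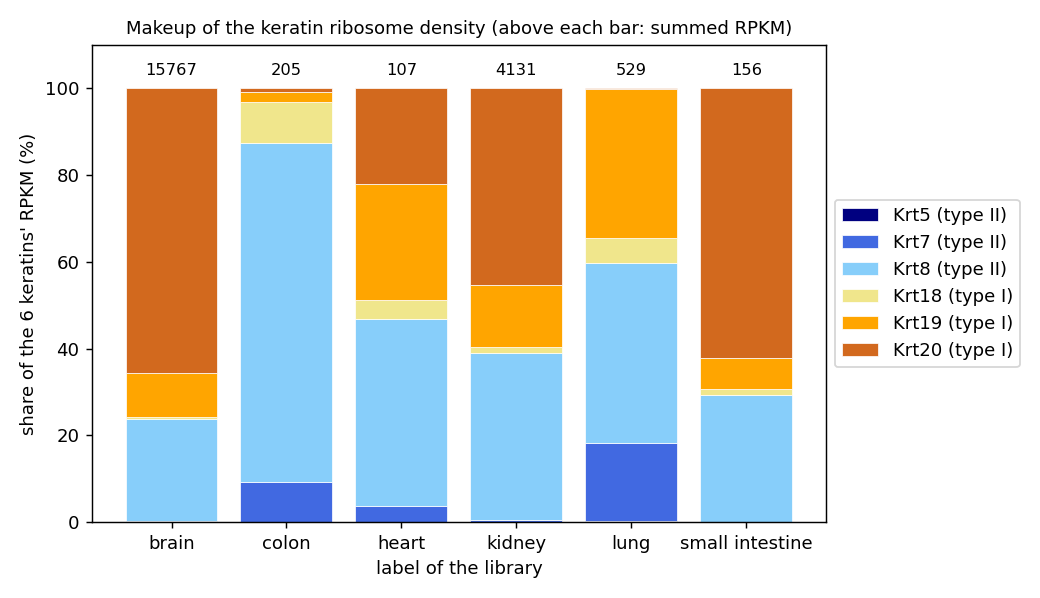
Share of each keratin (%) in the summed RPKM of the 6 keratins, by label of the library, with that sum above each bar. Krt20 gives 65.6% in the brain-labelled library and 62.3% in the small intestine-labelled one, and Krt8 gives 78.3% in the colon-labelled one.

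The makeup of the keratin density separated the libraries further. Krt20 gave 65.6% of the 6 keratins' density in the brain-labelled library, 62.3% in the small intestine-labelled one and 45.3% in the kidney-labelled one. Krt8 led in the libraries labelled colon (78.3%), heart (43.1%) and lung (41.4%). In the colon-labelled library Krt8 was followed by Krt18 (9.41%) and Krt7 (9.18%), and in the lung-labelled one by Krt19 (34.4%) and Krt7 (18.0%). The brain-, kidney- and small intestine-labelled libraries had the same leading keratins in the same order, Krt20 before Krt8 before Krt19, at summed densities of 15767, 4131 and 156 RPKM.

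The share that other keratins added differed between the libraries. Of 38 keratin genes listed, 32 were outside the 10 genes, and 0 of these reached 100 RPKM in any library while 7 reached 10 RPKM. The 6 keratins gave 99.9% of all keratin density in the brain-labelled library, 99.8% in the kidney-labelled one, 93.1% in the colon-labelled one, 86.5% in the heart-labelled one, 82.3% in the small intestine-labelled one and 77.2% in the lung-labelled one. In the lung-labelled library the others summed to 156 RPKM, led by Krt15 (55.7 RPKM), a keratin of basal cells, Krt80 (32.0 RPKM), Krt23 (26.7 RPKM) and Krt4 (11.8 RPKM), a keratin of stratified epithelium.

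**Figure D3:**
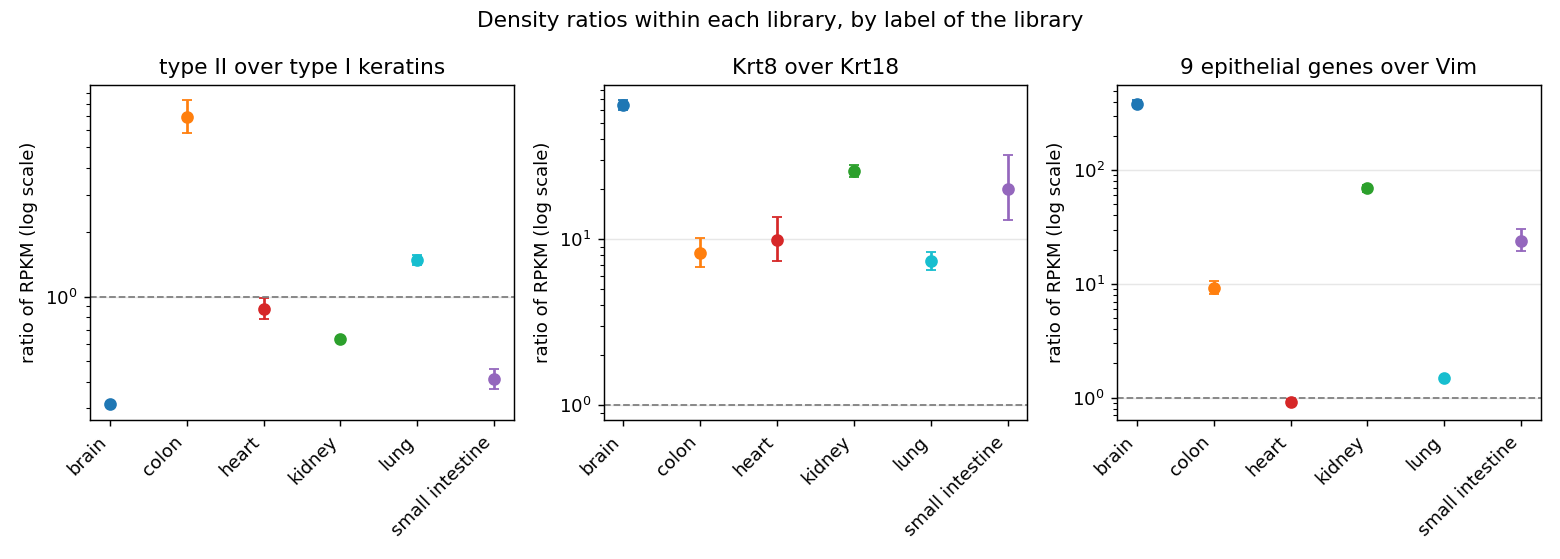
Density ratios within each library (log axes, 95% intervals of the counting error), by label. Left, type II over type I keratins, from 0.313 (brain-labelled) to 6.96 (colon-labelled); middle, Krt8 over Krt18, from 7.37 to 64.2; right, the 9 epithelial genes over Vim, from 0.918 (heart-labelled) to 383 (brain-labelled). The dashed line is a ratio of 1.

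The adhesion genes ranged less widely than Krt20. Epcam had 1175 RPKM in the kidney-labelled library, 1130 RPKM in the brain-labelled one, 61.8 RPKM in the colon-labelled one, 27.0 RPKM in the lung-labelled one, 23.5 RPKM in the heart-labelled one and 19.9 RPKM in the small intestine-labelled one. The 2 highest libraries differed by 1.04-fold (1.01 to 1.07) and their single intervals overlapped, and the heart-labelled library overlapped with each of its neighbours in this order. With Kri1 left out of the totals the 2 highest differed by 1.31-fold.

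Cdh1 had 624 RPKM in the kidney-labelled library, 373 RPKM in the brain-labelled one, 170 RPKM in the lung-labelled one, 75.6 RPKM in the colon-labelled one, 10.2 RPKM in the heart-labelled one and 6.91 RPKM in the small intestine-labelled one. All 6 values stood apart beyond counting error. The lung-labelled library ranked 3 of 6 for Cdh1, whereas its Epcam overlapped with that of the heart-labelled one. Of the other cadherins, Cdh17, the cadherin of intestinal epithelium, had 1184 RPKM in the brain-labelled library and 569 RPKM in the kidney-labelled one, and between 0.574 and 11.8 RPKM in the other 4. Cdh5, the cadherin of endothelium, was highest in the lung-labelled library at 1139 RPKM. Cdh16, the kidney cadherin, named after its values were seen, had 347 RPKM in the colon-labelled library and at most 8.05 RPKM in any other.

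Vil1 had 1330 RPKM in the brain-labelled library, 128 RPKM in the kidney-labelled one, 67.3 RPKM in the colon-labelled one, 15.3 RPKM in the small intestine-labelled one, 2.96 RPKM in the heart-labelled one and 0.417 RPKM, from 8 reads, in the lung-labelled one. Its values did not overlap within counting error, and the brain-labelled library exceeded the next 10.4-fold (9.96 to 10.8). The colon-labelled library thus ranked 3 of 6 for Vil1 and 5 of 6 for Krt20. Among the other genes of the brush border cytoskeleton the same library varied by gene. Myo1a, a brush border myosin, had 966 RPKM in the brain-labelled library, 149 RPKM in the kidney-labelled one and 0.284 RPKM in the colon-labelled one. Eps8, which caps and bundles actin in microvilli, had 897, 182 and 359 RPKM in the same libraries.

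Vim followed an order of its own. It had 491 RPKM in the lung-labelled library, 156 RPKM in the heart-labelled one, 87.6 RPKM in the kidney-labelled one, 48.6 RPKM in the brain-labelled one, 44.1 RPKM in the colon-labelled one and 8.23 RPKM in the small intestine-labelled one. The libraries labelled brain and colon overlapped, and the lung-labelled library exceeded the heart-labelled one 3.14-fold (2.98 to 3.32). The 9 epithelial genes summed to 383 times the density of Vim (356 to 413) in the brain-labelled library, 69.1 times (64.8 to 73.8) in the kidney-labelled one, 24.1 times (19.4 to 30.1) in the small intestine-labelled one and 9.27 times (8.20 to 10.5) in the colon-labelled one. The ratio was 1.48 (1.43 to 1.53) in the lung-labelled library and 0.918 (0.858 to 0.982) in the heart-labelled one. In the libraries labelled colon and lung the direction depended on how the 9 genes were summed, as the median gene stood at 0.436 and 0.0606 of Vim. In the small intestine-labelled library the median gene stood at 1.34 times Vim, and the ratio rested on 88 reads of Vim. The summed density of the 9 genes there was 198 RPKM, below the 409 RPKM of the colon-labelled library.

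Markers of cell types that use Vim were measured beside it, and their part in its level was not tested. The 4 endothelial genes (such as Pecam1 and Cdh5) summed to 2074 RPKM in the lung-labelled library, 433 RPKM in the heart-labelled one and between 24.0 and 173 RPKM in the other 4. The 4 leukocyte genes (such as Ptprc and Lcp1) summed to 263 RPKM in the lung-labelled library and to between 19.7 and 79.8 RPKM elsewhere, with Cd68 at 0 in the libraries labelled brain and colon. Csf1r of this list, named after its values were seen, was highest in the small intestine-labelled library (39.8 RPKM, against 24.0 RPKM in the lung-labelled one). The 5 fibroblast genes (such as Col1a1 and Col1a2) summed to between 478 RPKM (small intestine-labelled) and 2548 RPKM (kidney-labelled), and the 3 smooth muscle genes (such as Myh11 and Tagln) to between 31.0 RPKM (small intestine-labelled) and 3484 RPKM (kidney-labelled). The fibroblast genes differed in order. Named after their values were seen, Dcn (120 RPKM) and Lum (61.7 RPKM) were highest in the heart-labelled library and Pdgfra (382 RPKM) in the lung-labelled one. Lum had 0.128 RPKM, from 1 read, in the lung-labelled library.

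Heart holds little epithelium, and the heart-labelled library carried the heart markers, so the others were set against it. That library also held reads of the colon markers Muc2 (4307), Car1 (240) and Slc26a3 (134), and their source was not tested. A gene called lower below is thus lower than in a library that held gut markers. A gene was counted where 1 of the 2 libraries had at least 10 reads, a side with fewer than 3 reads was set to 3 reads, and 4-fold was the size that counted. In the brain-labelled library 9 of 9 epithelial genes were at least 4-fold higher, beside 20.8% of all 12553 mRNAs tested, and 0 were 4-fold lower, beside 29.7%. Vil1 was 450-fold (350 to 590) and Krt20 440-fold (388 to 500) higher. Krt5, with no reads in the heart-labelled library, was 16.2-fold higher with 3 reads put in their place. In the kidney-labelled library 8 of 8 tested were higher, beside 18.7% of all mRNAs, and 0 were lower, beside 15.7%. Folds ran there from 5.37 (Krt7) to 79.5 (Krt20), with Cdh1 at 61.3.

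The other libraries split the 9 genes. In the lung-labelled library 6 of 9 were at least 4-fold higher, beside 24.3% of all mRNAs, namely Krt5, Krt7, Krt8, Krt18, Krt19 and Cdh1. Krt20 and Vil1 were lower there, at 0.0595 and 0.141 of the heart-labelled library, beside 20.8% of all mRNAs that were lower, and Epcam differed by 1.15-fold (0.932 to 1.41). In the colon-labelled library 4 of 8 were higher, beside 17.5%, with Vil1 at 22.8-fold, Cdh1 at 7.42-fold, Krt7 at 4.79-fold and Krt18 at 4.16-fold. Krt19 and Krt20 were lower there, at 0.154 and 0.0875 of the heart-labelled library, beside 15.2%. With the scaling by median of ratios or by upper quartile that count was 2.

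In the small intestine-labelled library 2 of 8 were higher, Vil1 at 5.19-fold and Krt20 at 4.13-fold, beside 23.1% of all mRNAs, and Krt7 was lower, at 0.0487 of the heart-labelled library (0.00571 to 0.187, from 2 reads; 0.0730 with 3 reads in their place), beside 14.8%. That count fell to 1 when mitochondrially encoded mRNAs were left out of the totals and also with upper-quartile scaling. Of 16 epithelial regulators and proteases, led by Klf5 and Spint2, the number at least 4-fold higher was 13 of 14 tested in the brain-labelled library, 15 of 16 in the kidney-labelled one, 11 of 14 in the colon-labelled one, 12 of 13 in the lung-labelled one and 2 of 11 in the small intestine-labelled one. Of the 11 brush border genes it was 11 of 11, 9 of 11, 10 of 11, 1 of 9 and 2 of 11 in the same order. The shares of all mRNAs at least 4-fold higher were 20.8%, 18.7%, 17.5%, 24.3% and 23.1% in that order. The 2 of 11 in the small intestine-labelled library, and the 1 of 9 in the lung-labelled one, did not exceed these shares. A gene with few reads in the heart-labelled library was tested only where the other library had at least 10 reads. At least 4-fold lower were 4 of the 9 brush border genes tested in the lung-labelled library and 1 of 11 in the colon-labelled one, and 1 of the regulators and proteases each in the brain- and kidney-labelled ones. Beside these stood 20.8%, 15.2%, 29.7% and 15.7% of all mRNAs that were lower, in that order of libraries. All 5 comparisons share the heart-labelled library, so they are not independent of each other.

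**Figure D4:**
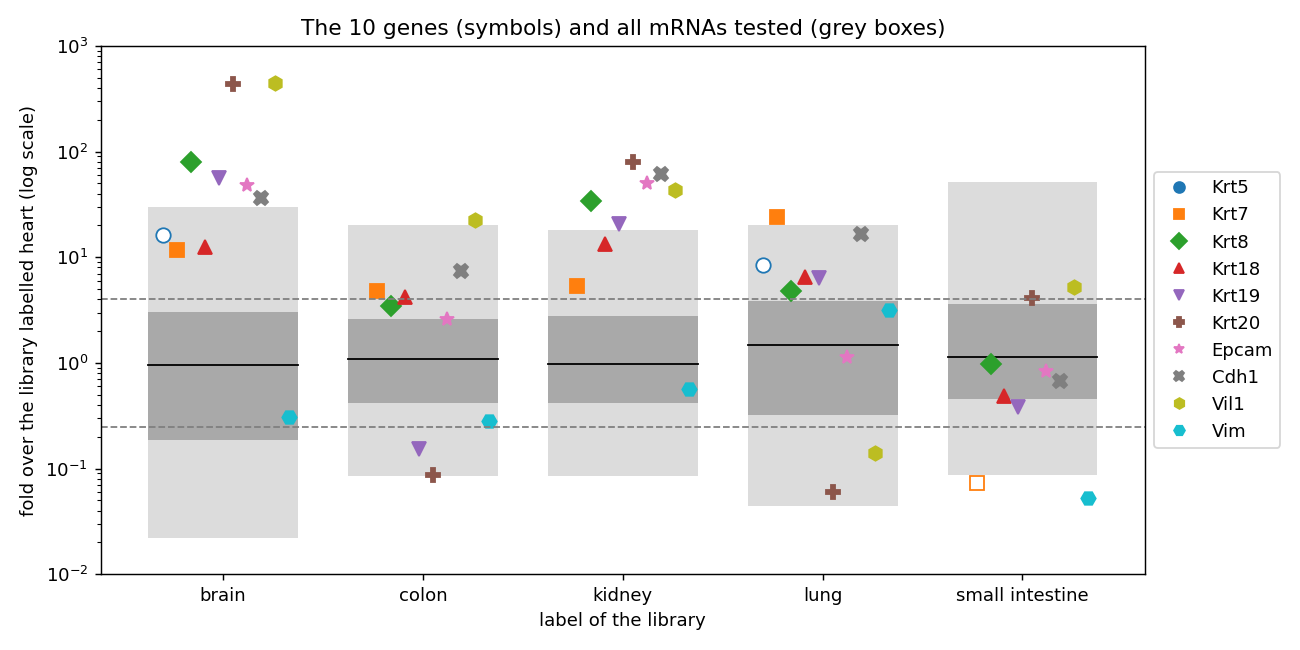
Fold over the heart-labelled library (log axis) for each of the other 5 libraries. Symbols are the 10 genes, open where 1 side was set to 3 reads; pale and dark grey boxes span the 5th to 95th percentile and the quartiles of all mRNAs tested, the black line is their median, and dashed lines mark 4-fold. All 9 epithelial genes of the brain-labelled library lie above the upper dashed line, whereas Krt20 and Vil1 lie below the lower line in the lung-labelled one.

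The 2 libraries with the highest epithelial density were then set against each other. At least 4-fold higher in the brain-labelled library than in the kidney-labelled one were 3 of the 9 epithelial genes, beside 11.6% of all mRNAs. They were Vil1 (10.4-fold), Krt20 (5.53-fold) and Krt5 (15.0-fold with 3 reads in place of 0 in the kidney-labelled library). None was 4-fold lower, beside 25.4% of all mRNAs. Krt19 (2.71-fold), Krt8 (2.34-fold) and Krt7 (2.17-fold) were higher to a smaller degree, Epcam (0.962) and Krt18 (0.937) were near 1, and Cdh1 was at 0.598. These sizes depended on the scaling. With Kri1 left out of the totals, the kidney-labelled library exceeded the brain-labelled one 1.31-fold for Epcam, 1.34-fold for Krt18 and 2.10-fold for Cdh1. Median-of-ratios scaling gave 1.33, 1.36 and 2.13. Without Kri1, Vil1 was 8.25-fold and Krt20 4.40-fold higher in the brain-labelled library. Of the 11 brush border genes 7 were at least 4-fold higher in the brain-labelled library, with a median of 4.99-fold, and 0 were 4-fold lower. Of 15 epithelial regulators and proteases tested, 0 were 4-fold higher and 2 were 4-fold lower, with a median of 1.08-fold, beside 1.02-fold over all mRNAs.

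A low epithelial signal was present in the libraries labelled small intestine and heart, and its level was set beside that of tissue markers. In the small intestine-labelled library the 6 epithelial genes with at least 50 reads stood at 0.687% to 1.85% of their level in the brain-labelled one (median 1.19%), and the small intestine markers Apoa4, Fabp2 and Lct at 1.17% to 1.82% (median 1.71%). Of the 6 genes, Krt8 (1.22%) and Epcam (1.76%) stood within the range of the markers. Krt19 (0.687%), Krt20 (0.939%) and Vil1 (1.15%) stood below it, and Cdh1 (1.85%) above it. Krt18 and Krt7, with 22 and 2 reads there, stood further from it, at 3.93% and 0.418%. In the heart-labelled library the 6 epithelial genes with at least 50 reads stood at 1.26% to 4.84% of their level in the kidney-labelled one (median 2.15%), and the colon markers Muc2, Car1 and Slc26a3 at 1.54% to 8.63% (median 1.96%). Krt18 and Krt7, with 48 and 44 reads in the heart-labelled library, stood higher, at 7.50% and 18.6%. Against the brain-labelled library, the epithelial genes with at least 50 reads in the heart-labelled one stood at 0.222% to 2.73% (median 1.51%), while the small intestine markers stood lower, at 0.0895% to 0.156%. Likewise, the 6 genes of the small intestine-labelled library stood at 1.11% (Cdh1) to 12.0% (Vil1) of the kidney-labelled one. The colon markers stood lower there, at 0.188% (Slc26a3) to 0.732% (Car1). Whether reads of another library contributed to these values was not tested.

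**Figure D5:**
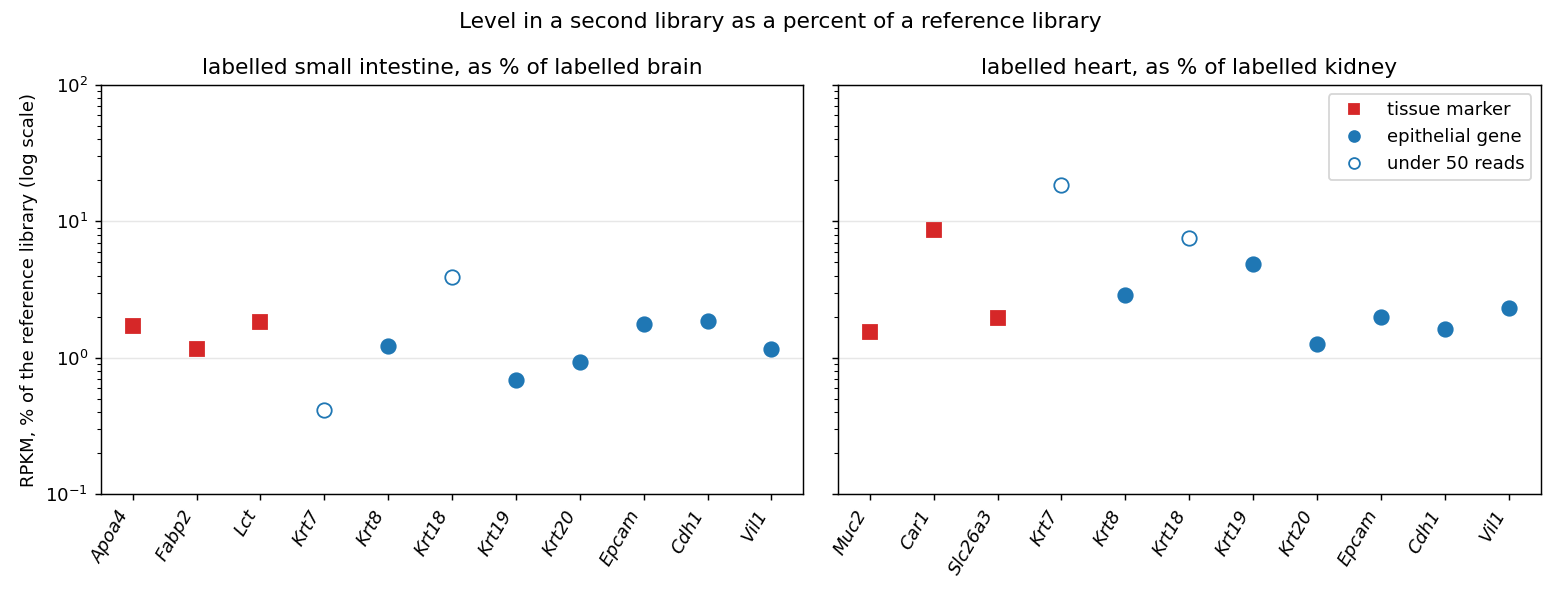
RPKM of 8 epithelial genes (circles, open under 50 reads) and 3 tissue markers (squares) in the small intestine-labelled library as a percent of the brain-labelled one (left) and in the heart-labelled one as a percent of the kidney-labelled one (right), on log axes. On the left Krt8, Krt19, Krt20, Epcam, Cdh1 and Vil1 lie between 0.687% and 1.85%, around the markers at 1.17% to 1.82%.

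How the 10 genes varied together over the libraries is given as Pearson's r of log2(RPKM + 1) over 6 libraries, as a description without a test, since the points share a library and its scaling. The highest r among the 10 genes was 0.993 between Krt18 and Cdh1, followed by 0.949 between Krt8 and Epcam. Krt8 and its partner Krt18 had 0.915. Krt20 had 0.828 with Epcam, 0.787 with Vil1 and 0.00457 with Krt7. Vim ranged from -0.463 with Vil1 to 0.700 with Krt7.

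Outside the 10 genes, the mRNAs most like each by the same measure were sought among those with at least 50 reads in a library. Vil1 was most like Tmigd1 (0.994), Clec2h (0.993) and Slc10a2 (0.991), the ileal bile acid transporter. Epcam was most like Ugt2b35 (0.991), Cdhr2 (0.989), a protocadherin of the brush border, and Mapk13 (0.988). Cdh1 was most like Cdca2 (0.994), Plgrkt (0.992) and Tspan8 (0.990), and Krt18 most like Cdca2 (0.999), Lima1 (0.996) and H4c16 (0.993). Vim was most like Cavin1 (0.996), a caveolar protein, Nat10 (0.991) and Gnai2 (0.989).

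The nearest mRNAs of the remaining keratins were Zfp51 (0.995), Sf1 (0.989) and Mmp9 (0.986) for Krt5, Hyal2 (0.995), Stxbp3 (0.994) and H2-Q4 (0.994) for Krt7, and Ect2 (0.995), Ttc22 (0.993) and H1f1 (0.993) for Krt8. For Krt19 they were Birc5 (0.996), Alpk1 (0.995) and Ryk (0.995), and for Krt20 Bloc1s3 (0.997), Tox (0.996) and Garin5a (0.994). The likeness is of pattern and not of level, since Krt20 reached 10346 RPKM and Bloc1s3 8.20 RPKM. Between 0.301% and 0.694% of the 12966 mRNAs compared had an r of at least 0.95 with a given gene of the 10. With a pseudocount of 0.1 in place of 1, Krt20 kept 0 of its 3 nearest mRNAs and Vim 3 of 3, and with median-of-ratios scaling Krt20 kept 2 and Vim 1. Krt5 and Krt7 kept 1 of 3 under either change, and Krt19 kept 1 with the pseudocount and 2 with the scaling. The remaining genes kept 2 or 3.

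As codon choice was a subject of the study, the third codon positions of the 10 genes were counted. Codons for methionine and tryptophan and stop codons were left out. The share of the remaining codons ending in G or C was between 61.1% (Krt20) and 77.7% (Krt8), beside a median of 58.9% (quartiles 49.5% to 67.0%) over 18150 mRNAs. Krt7 (74.7%), Krt19 (73.4%), Vim (71.0%), Krt18 (70.6%) and Krt5 (69.3%) were above the upper quartile, as was Vil1 (67.4%), while Epcam and Cdh1 had 62.3% each. Krt20, the most densely translated of the 10 in the libraries labelled brain, kidney and small intestine, had the lowest share.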

How the data were processed

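Ribo-seq was measured in 6 mouse tissue libraries. The values are RPKM as deposited by the authors, who gave each protein-coding mRNA of a library a single value from the reads on its CDS. The methods, written for the macrophage libraries and taken to hold here, describe trimming with Cutadapt, removal of reads under 15 nt, STAR alignment to the longest-CDS mRNA of each gene (Ensembl GRCm39 release 107) and exclusion of multi-mapped reads and of reads with more than 2 mismatches. Tool versions are not given in the sources used here. The exclusion of multi-mapped reads can lower genes with close copies. The macrophage libraries were not analysed here.

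The product of RPKM and CDS length came out as whole reads for 100% of values (within 1e-06 of a whole number), which recovered 4504853 to 10635031 reads per library. Counting error is an exact Poisson interval for a level and a Clopper-Pearson interval for a ratio, both 95%, and a zero is given the RPKM of 3 reads. Symbols came from GENCODE M39 and were missing for 13 of 18437 mRNAs. Fold comparisons required 10 reads in either library. RPKM was tried with Kri1 or mitochondrially encoded mRNAs left out of the totals, with median-of-ratios and with upper-quartile scaling, which moved log2 levels by between -0.45 (median of ratios, labelled lung) and 0.36 (Kri1 left out, labelled kidney), and changes between libraries are to be read relative to these shifts. Other alternatives changed the genes in a ratio, the fold that counts, the pseudocount and the read minimum.

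The genes, the marker lists and the measures were chosen with earlier results of these data known. Named are all 10 genes, all markers of the 6 tissues, the 2 genes of each further list with the highest RPKM, Kri1, keratins of at least 100 RPKM, and the 3 mRNAs most like each gene. Names outside this rule are marked or stand in a count. Libraries were kept under their labels. Read recovery and fold calls were tested on simulated data. Python 3.11.15 was used with scipy 1.17.1, pandas 2.3.3, matplotlib 3.10.9 and numpy 2.4.6.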

Additional observations from a re-analysis of the deposited data

How the results depend on the processing

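Each of the 10 genes kept its highest library under the 4 scalings and with 1 RPKM added, and the fold of the highest library over the next moved beyond its counting interval in 26 of these 50 settings. Ratios within a library do not depend on the scaling. No paired analysis was possible because each label has 1 library. Krt8 over Krt18 in place of all 6 keratins turned the type II over type I ratio from below to above 1 in the libraries labelled brain (64.2), heart (9.96), kidney (25.7) and small intestine (20.0), by construction, since Krt19 and Krt20 are then left out, and raised it to 7.37 in the lung-labelled one. Sums of reads gave 0.358 (brain-labelled), 1.03 (heart-labelled, turned), 0.734 (kidney-labelled), 1.76 (lung-labelled) and 0.472 (small intestine-labelled), and all listed keratins gave 4.56 (colon-labelled) and 1.19 (lung-labelled).

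The ratio of the 9 epithelial genes to Vim, given for the labels brain, colon, heart, kidney, lung and then small intestine, was 306, 5.21, 0.594, 50.3, 0.972 and 18.3 without Krt8 and Krt18, so that it turned in the lung-labelled library. It was 170, 5.64, 0.624, 47.8, 1.03 and 12.3 without the gene of highest density, and 23.3, 0.436, 0.0652, 6.77, 0.0606 and 1.34 with the median gene, which turned the colon- and lung-labelled libraries. With reads it was 11.7 (colon-labelled) and 1.74 (lung-labelled).

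The number of epithelial genes 4-fold above the heart-labelled library fell to 2 in the colon-labelled one under median-of-ratios and under upper-quartile scaling, and with 10-fold in place of 4-fold to 1 there, 2 in the lung-labelled one and 0 in the small intestine-labelled one. In the small intestine-labelled library it was 1 with mitochondrially encoded mRNAs left out and with upper-quartile scaling. The other 33 settings of these counts stayed within 1.5 times. Where no cause is given, the cause was not tested. Depth limits the values that rest on at most 63 reads, namely Krt5 in every library, Krt7 and Krt18 in the heart- and small intestine-labelled ones, Krt19 in the colon-labelled one, Krt20 in the colon- and lung-labelled ones and Vil1 in the heart- and lung-labelled ones.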

Other observations

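Intermediate filaments outside the keratins and Vim differed in how far their density was confined to a library. Des, the filament of muscle, had 738 RPKM in the heart-labelled library, where Vim had 156 RPKM. It also had 173 RPKM in the kidney-labelled library and 80.7 RPKM in the brain-labelled library. Nefm, a neurofilament subunit, had 623 RPKM in the small intestine-labelled library, where Vim was lowest at 8.23 RPKM, and at most 4.77 RPKM elsewhere. Synm, named after its values were seen, was less confined to a single library. It had 48.6 RPKM under the lung label, 45.8 RPKM under the kidney label and 40.5 RPKM under the brain label. Its values were lower under the small intestine (15.8 RPKM), heart (5.09 RPKM) and colon (2.37 RPKM) labels. The 9 such genes summed to 1678 RPKM in the small intestine-labelled library, 756 RPKM in the heart-labelled one and between 22.9 and 241 RPKM in the other 4. Of the 3 astrocyte genes, which summed to 572 RPKM in the small intestine-labelled library, Gfap had reads there only (33.3 RPKM), while Aqp4 was highest in the kidney-labelled one (403 RPKM).

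Junction genes beside Cdh1 differed by list in where they were highest. The 4 catenins, which link cadherins to actin, summed to 812 RPKM in the heart-labelled library and 828 RPKM in the lung-labelled one, above the 675 RPKM in the brain-labelled one, and were lowest in the small intestine-labelled one (101 RPKM). Ctnna1 was highest in the heart-labelled library (656 RPKM) and Jup in the lung-labelled one (246 RPKM). Of the 4, only Ctnna1 was higher in the heart-labelled library than in the brain-labelled one (404 RPKM). Jup stood at 106 against 127 RPKM in these libraries. Named after their values were seen, Ctnnb1 (49.5 against 132 RPKM) and Ctnnd1 (0.0842, from 2 reads, against 11.1 RPKM) were also lower in the heart-labelled one. The 8 desmosome genes summed to 623 RPKM in the brain-labelled library, 401 RPKM in the kidney-labelled one, 231 RPKM in the heart-labelled one and between 13.2 and 85.5 RPKM in the other 3. Dsg2, a desmosomal cadherin, had 298 RPKM in the brain-labelled library, 221 RPKM in the kidney-labelled one and 10.3 RPKM in the lung-labelled one. Dsc2 had 124, 102 and 0.0478 RPKM in the same libraries, the last from 1 read.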
